A study of Mus musculus with 3 samples.

Results

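The Wnt signalling genes described here are the Wnt ligands, their Frizzled receptors, the co-receptors Lrp5 and Lrp6, and the secreted antagonists of the Sfrp and Dkk families. They were taken from the count table by symbol (Wnt, Fzd, Sfrp or Dkk followed by a digit, with Lrp5 and Lrp6 added). This gave 39 of 39179 genes: 19 Wnt, 10 Fzd, 2 Lrp, 4 Sfrp and 4 Dkk genes. The rule uses no measured value, but it was chosen with earlier results of these data known.

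RNA bound to beads was sequenced from white fat of C57BL/6 mice that carried a Flag-FTO transgene, were 16 weeks old and had been fasted overnight. Beads with anti-Flag M2 antibody gave 2 libraries (Flag-IP 1 and Flag-IP 2) and beads with IgG gave 1 (IgG-IP), so all libraries come from mice with the transgene for tagged FTO, a demethylase of adenosines in RNA, and mice without the transgene were not analysed here. The promoter of the transgene, and whether libraries came from separate mice or from pooled tissue, are not given in the labels, so p-values measure only a spread that may be technical. A difference between groups is one in what the beads retained or in how the libraries were made. With 1 IgG-IP library these cannot be told apart, and spread between IgG-IP libraries enters no p-value. In bulk tissue such as this, more cells of a type and more RNA per cell cannot be told apart either.

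Wnt proteins are secreted, lipid-modified ligands that bind the cysteine-rich domain of Frizzled receptors, and those that stabilise beta-catenin bring in Lrp5 or Lrp6 as well. Sfrp proteins carry a Frizzled-like domain and bind the ligands, while most Dkk proteins bind Lrp5 and Lrp6. In fat, signalling through beta-catenin holds back the differentiation of precursor cells into adipocytes. Wnt10b is the best known ligand with this effect, and Sfrp5 is a protein that adipocytes secrete.

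The ligands share a stretch of cysteine, histidine, glycine, any residue, serine, glycine, any residue and cysteine, whose serine receives the lipid that Frizzled receptors recognise. A search of the reading frames found it in 19 of 19 Wnt genes and in 0.0911% of 20851 mouse coding sequences. Its codons, in capitals with 18 bases of coding sequence on either side, are shown for the 4 ligands that were highest in the Flag-IP libraries relative to IgG-IP (Wnt4, Wnt11, Wnt6 and Wnt2b) and for the 2 tested ligands that were not higher (Wnt2 and Wnt5a), so that the near-identical sites can be seen. The sequences are from GENCODE M21 transcripts on GRCm38, written 5′ to 3′ on the coding strand, and each lies within a coding exon.
Wnt4, chr4:137296327-137296386, plus strand, exon 5: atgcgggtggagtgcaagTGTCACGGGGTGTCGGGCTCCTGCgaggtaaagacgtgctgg
Wnt11, chr7:98850242-98850301, plus strand, exon 6: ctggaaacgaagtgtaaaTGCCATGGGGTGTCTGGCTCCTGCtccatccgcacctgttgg
Wnt6, chr1:74784154-74784213, plus strand, exon 4: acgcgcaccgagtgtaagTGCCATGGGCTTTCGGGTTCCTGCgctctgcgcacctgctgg
Wnt2b, chr3:104951202-104951261, minus strand, exon 4: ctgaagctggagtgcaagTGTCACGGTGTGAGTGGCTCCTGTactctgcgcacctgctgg
Wnt2, chr6:18008774-18008833, minus strand, exon 4: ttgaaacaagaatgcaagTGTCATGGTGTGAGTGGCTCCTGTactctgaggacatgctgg
Wnt5a, chr14:28522497-28522556, plus strand, exon 5: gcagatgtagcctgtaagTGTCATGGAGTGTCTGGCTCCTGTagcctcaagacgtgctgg

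The share of G and C in this window ran from 48.3% in Wnt2 to 65% in Wnt6 over the 19 ligands. Of those shown, Wnt4 (63.3%), Wnt11 (56.7%), Wnt6 and Wnt2b (60%) lay above Wnt5a (55%) and Wnt2. Of the ligands not shown, Wnt7b was at 50%, Wnt9b at 55% and Wnt5b at 61.7%, with log2 fold changes above 0. Frizzled receptors carry near their end a stretch of lysine, threonine, 3 residues of any kind and tryptophan that binds Dishevelled, and it was found in 10 of 10 Fzd genes and in 2.15% of the coding sequences. Its codons are in capitals for the receptor with the most counts, Fzd3, for its closest relative Fzd6, and for the single-exon receptor gene Fzd7.
Fzd3, chr14:65212089-65212142, minus strand, exon 5: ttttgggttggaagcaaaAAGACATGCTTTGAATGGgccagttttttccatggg
Fzd6, chr15:39033931-39033984, plus strand, exon 5: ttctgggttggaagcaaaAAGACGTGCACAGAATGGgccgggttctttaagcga
Fzd7, chr1:59484589-59484642, plus strand, exon 1: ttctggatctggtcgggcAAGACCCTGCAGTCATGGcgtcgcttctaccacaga

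The libraries held 74176962 to 98227791 counts, and the most counted gene averaged 30720000. The median tested gene had 24 counts in Flag-IP 1, 26 in Flag-IP 2 and 25 in IgG-IP. The 39 genes together received 909 in Flag-IP 1, 1119 in Flag-IP 2 and 850 in IgG-IP. Counts below are given in this order. All 10 markers of white adipocytes were detected in every library, at 3 to 152 counts, but markers of other cells were too, among them 4 of 4 neural genes (26 to 407 counts), 8 of 8 stromal genes (6 to 86) and 5 of 5 endothelial genes (14 to 167). Epithelial markers had 0 to 16 counts, smooth muscle markers 6 to 106, skeletal muscle markers 0 to 271, and macrophage and leukocyte markers 2 to 365. Sums of some lists differed between the groups. The 10 adipocyte markers summed to 495.4, 410 and 379.6 normalized counts, with 2 of them higher (Plin1 and Plin4). The 4 neural ones summed to 633.2, 633.8 and 443.7, with 1 higher (Rbfox3). The 6 macrophage and leukocyte ones, 5 of them tested, summed to 301.5, 335.8 and 479.5, with 1 lower (Ptprc). Of the 3 tested skeletal muscle markers 1 was higher (Ckm). Of the 7 stromal, 5 endothelial, 5 smooth muscle and 2 epithelial markers tested, 0 passed by edgeR's quasi-likelihood test. At an unadjusted p under 0.05 by that test, 2, 0, 1 and 0 did. Among all 17587 tested genes 5.58% passed as higher and 5.77% as lower, and 12.9% and 11.8% did at an unadjusted p under 0.05. Whether any list exceeded that background was not tested. Per kilobase of gene the adipocyte markers stood higher, with a median of 2.19 counts, than the neural (1.00), stromal (1.00) and endothelial (0.86) ones. Whether other cells contributed Wnt transcripts was not tested.

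Of the 39 genes, 25 had enough counts to be tested, and 1 ligand, Wnt4, was higher in the Flag-IP libraries by edgeR's quasi-likelihood test, at an adjusted p of 0.0389. Among all 17587 tested genes 5.58% were higher by the same test and 5.77% were lower, so 1 of 25 is near that background. None was lower (0 of 25 with edgeR's quasi-likelihood test, 0 at an unadjusted p under 0.05, and 0 with the likelihood ratio test), and 6 were higher at an unadjusted p under 0.05, all ligands, where 12.9% of all tested genes were higher and 11.8% lower at that level. The median log2 fold change of the tested genes was 0.65, against 0.03 for all genes tested, and by role it was 1.04 for 15 ligands, -0.29 for 3 Frizzleds, -0.06 for 2 Lrp genes, -0.42 for 2 Sfrp genes and 0.39 for 3 Dkk genes. Of the 25 log2 fold changes 18 were above 0. The TMM factors bear on this: scaled by total counts alone, the median gene shifted by -0.52, calls over all genes split 342 higher to 3008 lower instead of 981 to 1015, 13 of the 25 members were above 0, none passed as higher, and Lrp6 (adjusted p = 0.0132) and Dkk2 (adjusted p = 0.0434) passed as lower. The count of higher members was 4 with edgeR's likelihood ratio test, where Wnt11, Wnt6 and Wnt2b joined Wnt4, and 4 with upper-quartile scaling, where Wnt11, Wnt2b and Wnt7b did.

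**Figure D1:**
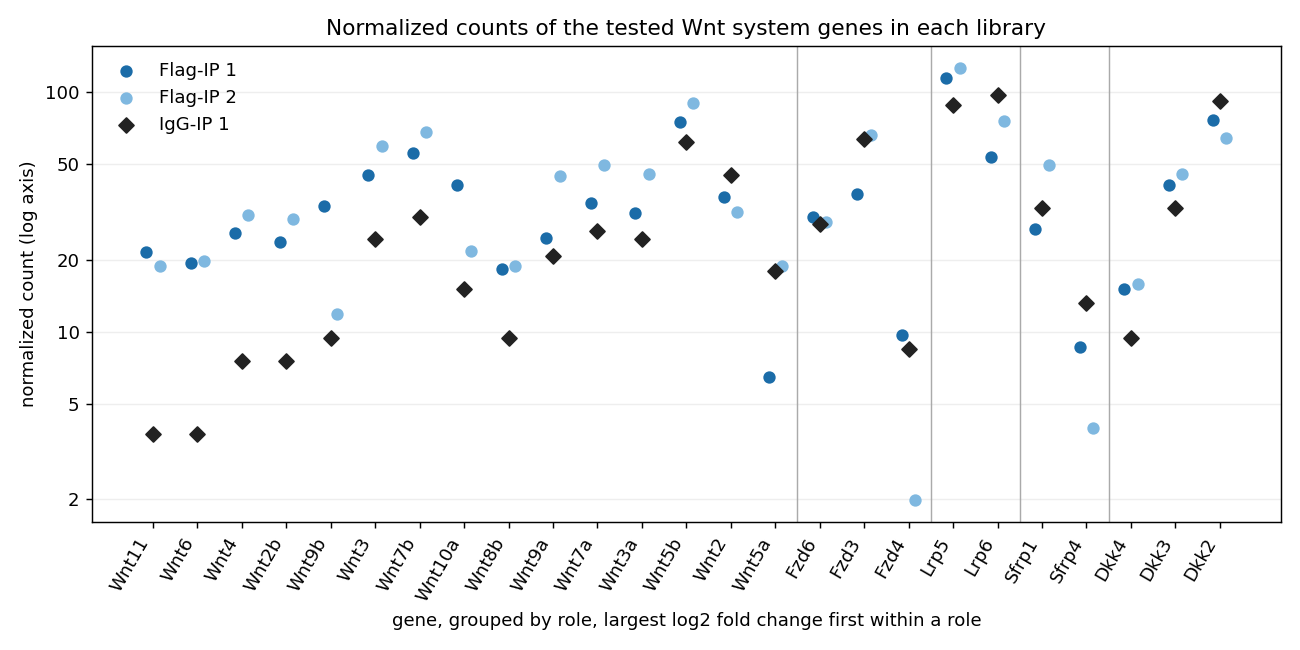
Normalized count (log axis) of the 25 tested genes in Flag-IP 1 (dark circles), in Flag-IP 2 (light circles) and in the IgG-IP library (diamonds), grouped by role. Wnt11, Wnt6, Wnt4 and Wnt2b show the widest gaps, with IgG-IP at 3.77 to 7.54 and both Flag-IP libraries at 18.8 to 30.7.

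Among the ligands, Wnt4, which acts in the female reproductive tract and kidney, had 24, 31 and 8 counts. These are 25.9, 30.7 and 7.54 normalized counts, so both Flag-IP libraries stood above IgG-IP. The log2 fold change was 1.89 ± 0.66 (SE, 2 libraries against 1), and the gene (chromosome 4, 137277489 to 137299726, GRCm38) overlaps no other counted gene. Its transcript shares an identical run of 43 bases with that of Dkk2, and how reads there were counted is not known. The IgG-IP value rests on 8 counts, with an exact 95% Poisson interval of 3.45 to 15.8 that covers counting error only. The call was lost with no filter on low counts (adjusted p = 0.0658), against a 1.5-fold change (adjusted p = 0.148), with total-count scaling (adjusted p = 0.151) and with the trend on transcript GC removed (log2 fold change 1.34, adjusted p = 0.32), and it held at an adjusted p of 0.0223 to 0.0428 under 4 other settings.

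Wnt11, a ligand of the beta-catenin-independent branch, had 20, 19 and 4 counts. The gene's log2 fold change was the largest among the tested members at 2.38 ± 0.87 (SE), with an adjusted p of 0.0527. Wnt6, which holds back fat cell differentiation together with Wnt10a and Wnt10b, had 18, 20 and 4 counts, or 19.4, 19.8 and 3.77 normalized counts, and a log2 fold change of 2.34 ± 0.88 (SE; adjusted p = 0.0614). Wnt2b, a relative of Wnt2, had 22, 30 and 8 counts and a log2 fold change of 1.81 ± 0.67 (SE; adjusted p = 0.0563). In each of these genes the Flag-IP libraries lay close together and well above IgG-IP, yet none passed, and the 4 counts of Wnt11 and Wnt6 in IgG-IP allow 1.09 to 10.2 (exact 95% Poisson interval). With Wnt4 they are the 4 members at least 2-fold higher in both Flag-IP libraries, a rule of size with no test that 9.07% of all tested genes met. No member was 2-fold lower in both, against 4.24% of tested genes.

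Wnt7b, needed for lung growth, had 52, 69 and 32 counts and a log2 fold change of 1.04 ± 0.39 (SE; adjusted p = 0.0604). Wnt3, needed for gastrulation, had 42, 60 and 26 counts and 1.09 ± 0.42 (SE; adjusted p = 0.0709). Both Flag-IP libraries were above IgG-IP for each, by less than 2-fold in Flag-IP 1. Wnt9b, an inducer of kidney tubules, had 31, 12 and 10 counts, and its Flag-IP libraries differed more from each other (log2 1.35) than Flag-IP 2 did from IgG-IP (0.28). Wnt10a, which acts in teeth, hair and skin, had 38, 22 and 16 counts and likewise differed between the Flag-IP libraries (log2 0.85).

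Wnt8b (17, 19 and 10 counts), Wnt9a (23, 45 and 22), Wnt7a (32, 50 and 28) and Wnt3a (29, 46 and 26) had log2 fold changes of 0.65 to 0.97, none of which passed. Wnt5b, which had the most counts of the ligands, had 70, 91 and 66, or 75.4, 90.1 and 62.2 normalized counts, and a log2 fold change of 0.41 ± 0.32 (SE; adjusted p = 0.456). That sign turned with total-count scaling (-0.10) and with the GC trend removed (-0.36).

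The ligand genes below 0 were Wnt2, with 34, 32 and 48 counts (-0.41 ± 0.41, SE; adjusted p = 0.582), and Wnt5a, the main ligand of the beta-catenin-independent branch, with 6, 19 and 19. Wnt2 was lower than IgG-IP in both Flag-IP libraries, while Wnt5a had 6.46 normalized counts in Flag-IP 1 and 18.8 in Flag-IP 2 against 17.9, so its log2 fold change of -0.48 ± 0.69 (SE) rests on Flag-IP 1 and was 0.071 without it. Of the 15 tested ligands 13 had both Flag-IP libraries above IgG-IP, 1 had both below and 1 had IgG-IP between. Over all members these numbers were 17, 4 and 4 of 25, where 40.5% of all tested genes had both above and 39% both below.

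**Figure D2:**
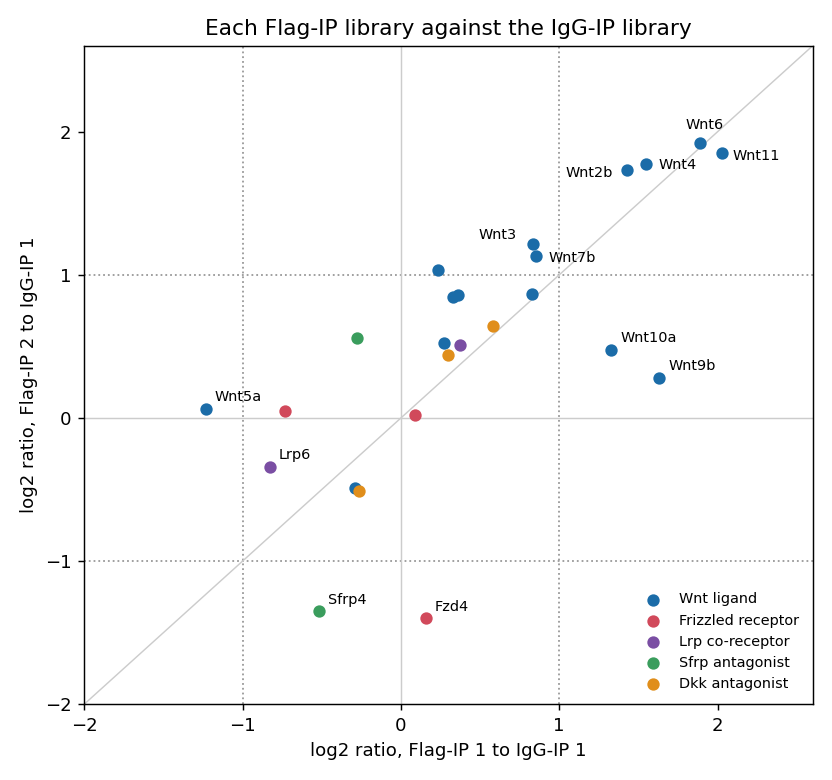
Log2 ratio to IgG-IP of Flag-IP 1 (x axis) and Flag-IP 2 (y axis) for the 25 tested genes, coloured by role, with dotted lines at 2-fold and a grey line of equal values. The 4 ligands Wnt11, Wnt6, Wnt4 and Wnt2b lie past 2-fold on both axes, while Wnt9b, Wnt5a and Fzd4 lie far from the line of equal values.

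Wnt9b, Wnt5a and Fzd4 were the 3 of 25 members whose Flag-IP libraries differed from each other by 2-fold or more, beside 12.5% of all tested genes. Normalized counts were higher in Flag-IP 1 for 8 of the 25. For such genes the spread between the Flag-IP libraries was as large as the difference from IgG-IP, and the fit, which shares its spread between genes, does not show it.

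Only 3 of 10 Frizzled genes could be tested and none passed (0 by edgeR's quasi-likelihood test, 0 at an unadjusted p under 0.05). Fzd3, a receptor of axon guidance and planar polarity, had 35, 67 and 68 counts, or 37.7, 66.4 and 64.1 normalized counts. Flag-IP 2 thus matched IgG-IP and Flag-IP 1 was lower, with a log2 fold change of -0.29 ± 0.35 (SE; adjusted p = 0.651) that turned to 0.050 without Flag-IP 1 and to 0.37 with the GC trend removed. Fzd6, which orients hairs, had 28, 29 and 30 counts and 0.058 ± 0.48 (SE), but the overlapping noncoding gene Gm26704 on the other strand had 91, 106 and 93, and without a known strand setting its reads cannot be told apart. Fzd4, the receptor for Norrin in retinal vessels, had 9, 2 and 9 counts.

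Of the co-receptors, Lrp5, which controls bone mass and was the most counted member, had 107, 128 and 94 counts, or 115.2, 126.8 and 88.6 normalized counts. Both Flag-IP libraries were above IgG-IP, with a log2 fold change of 0.45 ± 0.28 (SE; adjusted p = 0.329) that turned to -0.064 with total-count scaling and to -0.28 with the GC trend removed. Lrp6, its close relative, went the other way with 50, 77 and 103 counts, or 53.8, 76.3 and 97.0 normalized counts, and a log2 fold change of -0.57 ± 0.31 (SE; adjusted p = 0.235). Neither passed, and the difference between the genes was not tested. Their transcripts differ in GC content, 58.6% for Lrp5 and 46.0% for Lrp6, and share no identical run longer than 22 bases.

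Among the antagonists, 0 of 5 tested genes passed (edgeR's quasi-likelihood test, 0 at an unadjusted p under 0.05). Dkk2, an Lrp ligand that can act either way on the pathway, had 71, 65 and 98 counts and was below IgG-IP in both Flag-IP libraries (-0.39 ± 0.31, SE; adjusted p = 0.459). Dkk3, the divergent member, had 38, 46 and 35 counts, and Dkk4 had 14, 16 and 10, with log2 fold changes of 0.39 and 0.71. Sfrp1 had 25, 50 and 35 counts, so IgG-IP lay between the Flag-IP libraries (26.9 and 49.5 against 33 normalized counts), and its log2 fold change of 0.22 ± 0.43 (SE) was -0.29 without Flag-IP 2. Sfrp4 had 8, 4 and 14 counts and a log2 fold change of -1.07 ± 1.03 (SE), which was -1.71 without Flag-IP 1 and -0.61 without Flag-IP 2.

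The other 14 members had too few counts to test. Wnt10b had 4, 4 and 2 counts, Sfrp5 had 7, 10 and 5, and Dkk1, an inhibitor that binds Lrp6, had 6, 8 and 4. Wnt16, a ligand of bone, had 0, 10 and 4, and Wnt8a 4, 1 and 4. Differences in these genes were not detectable at this depth. IgG-IP was at 0 for Wnt1, Sfrp2 and the receptor genes Fzd1, Fzd2, Fzd8, Fzd9 and Fzd10, which allows up to 3 counts. Sfrp2, with 10, 6 and 0 counts, was at least 2.96-fold higher over that floor, but the overlapping antisense gene Gm26771 had 10, 16 and 8. Fzd1 had 3, 6 and 0 counts, Wnt1 2, 6 and 0, Fzd9 8, 1 and 0, and Fzd10 6, 2 and 0. In the last 3 of these, 1 Flag-IP library was itself under the floor, so no fold is given. Fzd2 (0, 2 and 0) and Fzd8 (2, 3 and 0) were at or under 3 counts throughout. Fzd5 had 6, 7 and 2 counts and Fzd7, a receptor of stem cells, 8, 4 and 6.

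Counts of the members followed the length of the gene on the chromosome, introns included, more closely than the length of its exons. Across the 39 genes Spearman's rho between mean count and span was 0.93, and between mean count and total exon length it was 0.22, over genes that share the same 3 libraries. Across 21226 protein-coding genes the values were 0.91 and 0.63. Per kilobase of span the members had a median of 0.82 counts, and the middle 50% lay between 0.69 and 1.06, while all protein-coding genes had a median of 0.80 and a middle 50% between 0.61 and 1.04. The members therefore sat at the level of protein-coding genes at large on this scale.

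The 6 single-exon Frizzled genes had mean counts of 0.67 to 6.00. The 16 members under 10 kb had 0.67 to 13.3, and the 11 members of at least 40 kb, Lrp5, Lrp6, Wnt5b, Dkk2 and Fzd3 among them, had 33.7 to 109.7. Wnt3a, a ligand of the embryo, stood at 0.79 mean counts per kilobase of span and Wnt7a at 0.77, close to Wnt5a (0.65), Sfrp1 (0.96) and Sfrp4 (0.88). The highest per kilobase of span were Dkk4 (3.80), Wnt10a (2.00), Sfrp5 (1.71) and Dkk1 (1.58), and the lowest were Fzd2 (0.18) and Fzd8 (0.28). Counts by position were not used here, so the part of each gene that the reads came from is not known.

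**Figure D3:**
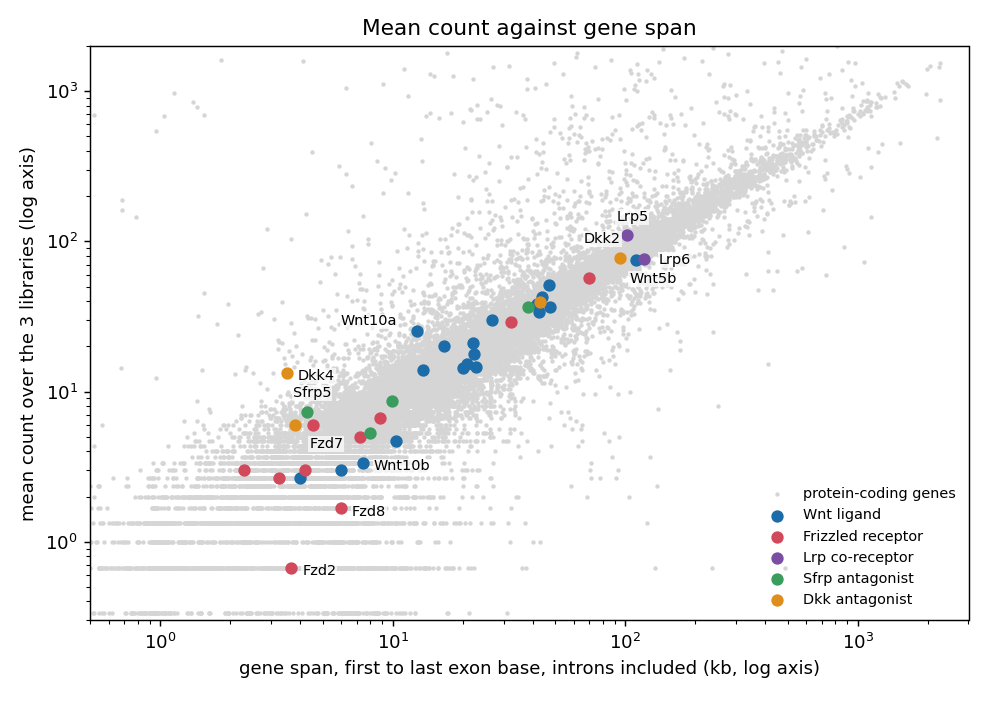
Mean count over the 3 libraries against gene span in kilobases (both log axes) for the 39 members, coloured by role, over all protein-coding genes within the axes (grey). The members follow the grey band, from Fzd2 at 0.67 counts to Lrp5 at 109.7.

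The log2 fold changes followed the GC content of the transcripts. Of 7 tested members with a transcript GC between 40% and 50%, 1 was above 0 and the median was -0.48. Those were Lrp6, Dkk2, Wnt5a, Sfrp4, Fzd3, Fzd4 and Fzd6. Between 50% and 55%, 5 of 6 were above 0 with a median of 0.55, and between 55% and 65%, 12 of 12 were, Wnt4, Wnt11, Wnt6, Wnt2b and Lrp5 among them, with a median of 1.04.

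Protein-coding genes averaging 20 counts or more showed the same order, with medians of -0.30, 0.27 and 0.67 in the 3 ranges of GC and, in the highest range, a middle 50% of 0.30 to 1.08. Spearman's rho of the log2 fold change with GC was 0.74 over the 25 members and 0.63 over 9084 such genes, with the genes sharing the same libraries. Within the 15 ligands it was 0.35. The members were not held to the limit of 20 counts, and Wnt11 (14.3 mean counts), Wnt6 (14) and Sfrp4 (8.67) were among those under it. For the ratio of Flag-IP 1 to Flag-IP 2 rho with GC was 0.08 over the 25 members. With the trend on GC removed the members' median was 0.15, 17 of 25 stayed above 0 and none passed. Whether GC content itself accounts for the differences was not tested.

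**Figure D4:**
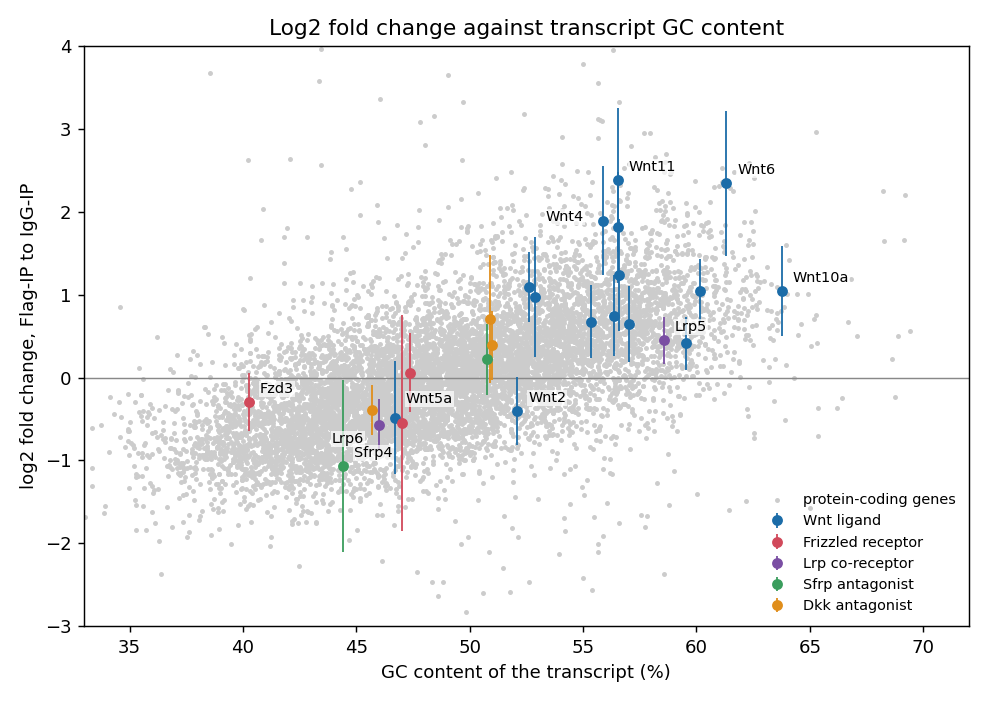
Log2 fold change of Flag-IP against IgG-IP versus transcript GC content (%) for the 25 tested members, coloured by role with standard errors, over protein-coding genes averaging 20 counts or more within the axes (grey). Members under 50% GC lie at or below 0.058, and those above 55% lie between 0.41 and 2.38.

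The bases GGAC, the core of the sequence in which adenosine methylation is most often found, were searched on the coding strand. All 39 coding sequences held them, as did 98.0% of 14757 tested coding sequences of any length. The median per kilobase was 5.31 over all 39 members, 5.65 over the 25 tested members and 4.84 over the tested protein-coding genes. Over the 25 tested members rho between GGAC per kilobase and log2 fold change was 0.22. Wnt4 has 9 in its 1053 coding bases and Lrp6 has 38 in 4839.

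Ligand genes that are neighbours on a chromosome can be set side by side. Wnt6 and Wnt10a lie 6193 bases apart on chromosome 1 (log2 fold changes 2.34 and 1.04), Wnt3a and Wnt9a 16175 bases apart on chromosome 11 (0.65 and 0.75), and Wnt9b and Wnt3 24328 bases apart on the same chromosome (1.24 and 1.09). Wnt10b and Wnt1, 11706 bases apart on chromosome 15, were too weakly counted to test. Related pairs were set side by side as well, with Wnt2 at -0.41 and Wnt2b at 1.81, and Wnt5a at -0.48 and Wnt5b at 0.41, and no difference between genes was tested. For 28 of 39 members the transcript shares no identical run of 30 bases or more with another member, and the longest run shared by any pair was 47 bases, found between Fzd1 and each of Fzd2 and Fzd7, and between Sfrp1 and Wnt5a, whose counts could be affected if reads there were split between genes.

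Of 84 other genes of the pathway 78 were tested, 6 were higher, 3 were lower and 69 did not pass, near the 5.58% and 5.77% of all tested genes. Most of these calls depended on the scaling: with the GC trend removed 1 of the 6 (Dvl2) and 0 of the 3 were kept, and with total-count scaling 1 of the 6 (Dvl2) and 3 of the 3. R-spondins sustain Frizzled and Lrp receptors at the cell surface. In the group of R-spondins and receptor turnover, 7 of 9 did not pass by edgeR's quasi-likelihood test. Rspo1 was higher with 45, 22 and 12 counts (1.62 ± 0.56, SE, adjusted p = 0.0395). Rspo2 was lower with 74, 61 and 142 (-0.94 ± 0.28, SE, adjusted p = 0.0158). The log2 fold change of Rspo1 was 0.94 without Flag-IP 1 and 2.09 without Flag-IP 2, and its adjusted p was 0.0777 with no filter, 0.205 with total-count scaling and 0.546 with the GC trend removed (log2 fold change 0.84). For Rspo2 it was 0.114 with the GC trend removed. In the group of the destruction complex and Dishevelled, Dvl2, which relays the signal from Frizzled, was higher with 19, 12 and 0 counts, at least 5.72-fold over a floor of 3 counts in IgG-IP (adjusted p = 0.00705). Apc, a scaffold for the breakdown of beta-catenin, was lower with 55, 60 and 114 counts (adjusted p = 0.0477; 0.549 with the GC trend removed), and 23 of 25 did not pass, Axin2, a target of the pathway, among them (45, 34 and 17 counts; adjusted p = 0.0562).

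In the planar polarity and calcium group 4 of 18 were higher and 1 was lower, where 5.58% and 5.77% of all tested genes were. The higher ones were the cadherins Celsr1 (183, 209 and 127 counts; 0.76 ± 0.25, SE), Celsr2 (37, 38 and 10; 2.03 ± 0.57) and Celsr3 (40, 33 and 14; 1.51 ± 0.53), which sit in the membrane beside Frizzleds, and the formin-related Daam2 (100, 129 and 58; 1.11 ± 0.31). Camk2d, a calcium-dependent kinase, was lower (137, 150 and 267; -0.76 ± 0.23). None of these 5 calls held with the GC trend removed, where Celsr1 was at 0.015, Celsr2 at 1.31, Celsr3 at 0.83, Daam2 at 0.60 and Camk2d at -0.26 (adjusted p 0.226 to 0.992), and the 4 higher calls were lost with total-count scaling too. None of the 5 tested genes that make, release or bind ligands passed (0 by edgeR's quasi-likelihood test, 3 at an unadjusted p under 0.05), and all 5 log2 fold changes were below 0. The most counted was Gpc6, a glypican, with 586, 623 and 952 counts (-0.52 ± 0.22, SE; adjusted p = 0.0963). Gpc6 passed as lower with total-count scaling (-1.04, adjusted p = 7.11e-05) and with the GC trend removed (-0.91, adjusted p = 0.00116).

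None passed among 5 alternative receptors (0 at an unadjusted p under 0.05; Ror1 had 252, 285 and 311 counts), 3 other antagonists (0 at an unadjusted p under 0.05; Wif1 had 44, 83 and 50) and 13 nuclear effectors (1 at an unadjusted p under 0.05; Tle4 had 577, 640 and 558). The median over the 78 genes was 0.22. With the GC trend removed 1 of them was higher (Dvl2) and 1 lower (Gpc6), and with total-count scaling 1 was higher and 15 were lower.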

How the data were processed

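Each library's RNA had been recovered from white fat lysate with anti-Flag or IgG beads and sequenced. The submitters' processing notes list CASAVA 1.7, Bowtie 0.12.2 and the build mm8. Neither the counting program nor its gene models or use of strand is stated there. Per the file headers the deposited values are whole-number counts per Ensembl gene, which the authors did not normalize, and its columns carry the sample numbers of the labels. A deposited list of lipid genes holds none of the 39 members and was not used.

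Members were taken by symbol, and the members and lists were chosen with earlier results of these data known. Genes passing filterByExpr (minimum count 10) were tested with edgeR 4.0.16 in R 4.3.3, with TMM factors, a quasi-likelihood fit of Flag-IP against IgG-IP and Benjamini-Hochberg adjustment over all 17587 genes at 0.05. The fit had 1 residual degree of freedom, and 0 genes had finite prior degrees of freedom. Standard errors (the log2 fold change divided by the square root of F) therefore use a spread shared between genes of similar count level. No gene's own spread enters them. A normalized count is a count scaled to the mean effective library size. Single libraries were compared as log2 CPM computed in edgeR (prior count 2). A floor of 3 counts bounds a fold where IgG-IP is at 0. Positions, lengths and GC come from GENCODE M21 (GRCm38), using for each gene the transcript with the longest coding sequence, and 37607 of 39179 genes matched. Named members are those past the threshold, those at least 2-fold higher or lower in both Flag-IP libraries and the most counted of each role, with others shown by range. Named pathway genes are those past the threshold and, where none of a list passed, the most counted of that list. Axin2 was named outside this rule. Other members were named once their values had been seen. The fit was tested on simulated data.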

Additional observations from a re-analysis of the deposited data

How the results depend on the processing

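No paired analysis was possible because the labels number the Flag-IP libraries 1 and 2 and the IgG-IP library 1, so the groups share a single number. With total-count scaling, which shifted the median gene by -0.52, 0 members were higher and 2 were lower (Lrp6 and Dkk2), 1 other pathway gene was higher and 15 were lower, and the members' median was 0.14. With the GC trend removed, 0 members were higher, 1 pathway gene was higher and 1 lower, and the median was 0.15. With upper-quartile scaling 4 members were higher, Wnt4, Wnt11, Wnt2b and Wnt7b. The likelihood ratio test gave 4 as well, Wnt4, Wnt11, Wnt6 and Wnt2b, and 0 lower pathway genes. With no filter 0 members and 3 pathway genes were higher, and against a 1.5-fold change 0 and 2, with 0 pathway genes lower. A mean of at least 50 counts left 6 members, without Wnt4, and their median was 0.15. Of these 1 was higher, Wnt7b (1.14, adjusted p = 0.030 by edgeR's quasi-likelihood test). RLE scaling and removal of the length trend left the count of higher members at 1 and that of lower members at 0. DESeq2 gave no adjusted p for 24 of 25 members. Of the 6 higher and 3 lower pathway genes it gave none for 5. The others, Rspo2, Celsr1, Daam2 and Camk2d, did not pass with DESeq2 (adjusted p 0.215 to 0.298). Counts without a Flag-IP library could not be fitted, since no residual degree of freedom remains. The members' median was 0.53 without Flag-IP 1 and 0.35 without Flag-IP 2. With prior counts of 0.5 and 10, 4 and 3 members were at least 2-fold higher in both Flag-IP libraries. Signs turned for weak members. Under total-count scaling Dkk3 was at -0.12, Fzd6 at -0.46, Lrp5 at -0.064, Sfrp1 at -0.28 and Wnt5b at -0.10. With the GC trend removed Fzd3 was at 0.37, Lrp5 at -0.28 and Wnt5b at -0.36. Leaving out a Flag-IP library gave ranges of -0.76 to 0.050 for Fzd3, -2.03 to 0.19 for Fzd4, -0.29 to 0.58 for Sfrp1 and -1.45 to 0.071 for Wnt5a. The causes were not tested beyond the shift and the smaller number of genes given here. Depth limits the weakly counted members most, where the standard error reached 1.30 (Fzd4).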
